A study of Mus musculus with 6 samples.

Results

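The 10 genes described here in mouse kidney are a set of p53 targets together with the cell-cycle inhibitors used as senescence arrest genes: Cdkn1a, Cdkn2a, Cdkn2b, Mdm2, Trp53inp1, Gdf15, Ccng1, Phlda3, Sesn2 and Bax. They were taken by symbol from the 55450 genes of the count table, by a choice made with earlier results of these data known, and 9 of them were among the 16592 genes with enough reads to be tested. All 6 mice were male, wild-type C57BL/6J, bought at 7 weeks of age and kept for 1 week before the experiment, with a body weight of 22 to 25 g. The 3 mice of the day-21 group had received adenine at 0.16 g/kg together with potassium oxonate at 2.4 g/kg, once daily by gavage, and the 3 mice of the day-0 group were the control, labelled with 20% PEG. Whether the day-21 mice received PEG is not given in the sources used here. Per the paper each group was killed on its own day, so the day-21 mice were 21 days older at sampling than the day-0 mice. Treatment therefore cannot be told apart from age or from repeated gavage in this comparison. Potassium oxonate blocks uricase and so raises uric acid, and adenine is metabolised to a poorly soluble compound that forms crystals in the tubules. The model is one of chemical kidney injury in young males of a single strain, with 3 of the 6 mice of each group sequenced, and whole kidney tissue was measured.

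The transcription factor p53, encoded by Trp53, is held at a low level by Mdm2, the ubiquitin ligase that is itself a p53 target. When DNA damage or other stress stabilises p53, it binds response elements made of a pair of half-sites and raises genes that stop the cell cycle, open mitochondria to apoptosis or adjust metabolism. Cdkn1a, which encodes the CDK inhibitor p21, is its best known arrest target. The INK4 inhibitors encoded by Cdkn2a and Cdkn2b hold CDK4 and CDK6 inactive, and with Cdkn1a they are widely used to mark senescent cells, including in injured kidney tubules. Several of the 10 genes also answer to other factors: Gdf15 and Sesn2 to the integrated stress response, and Cdkn2b to TGF-beta.

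Of the 10 genes, 3 rose from day 0 to day 21 and 1 fell, while 5 did not pass the test and 1 had too few reads to be tested. Gdf15 rose 8.91-fold, Phlda3 3.46-fold and Bax 2.08-fold, while Sesn2 was 2.09-fold higher on day 0 than on day 21. Cdkn1a, Cdkn2b, Mdm2, Ccng1 and Trp53inp1 were not called, and Cdkn2a stayed near the limit of detection in every mouse. A call needed a fold over 1.5 and an adjusted p under 0.05, from edgeR's quasi-likelihood test and Benjamini and Hochberg's method over all genes tested. Of all 16592 genes tested, 35.1% were called by this rule, 19.6% higher and 15.5% lower, so that 4 of 9 (44.4%) lay near the share among all genes and is no result about the set. Of the calls over all genes 55.8% were higher, and 81.7% with libraries scaled by their totals alone, which left the calls of the 9 genes as they were. The median log2 fold change of the 9 genes was 0.06, beside 0.03 over all genes tested.

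Sequences of 4 of the genes are shown because the p53 response element is what joins the targets as a class. RefSeq promoter windows of GRCm38.p6, from 250 bases before to 50 bases after an annotated start, were found for 9 of the 10 genes. The p53 half-site has 10 letters (3 purines, C, 2 letters that are A or T, G, 3 pyrimidines), and its palindromic form reads the same way on both strands. An exact pair of half-sites with a spacer of 0 to 1 base occurred in 3 of 32851 windows of all genes (0.00913%) and in none of the 12 windows of these genes. With at most 2 of 20 letters mismatched and the central C and G kept, a search added after the data had been seen, a pair was present in 224 windows (0.682%), among them those of Cdkn1a, Bax and Ccng1. The 250 bases before the start are given 5′ to 3′ on the strand of the gene, with such a pair in capitals, for these genes and for Gdf15, which had none there.
Cdkn1a (chr17:29090729-29090978, plus strand): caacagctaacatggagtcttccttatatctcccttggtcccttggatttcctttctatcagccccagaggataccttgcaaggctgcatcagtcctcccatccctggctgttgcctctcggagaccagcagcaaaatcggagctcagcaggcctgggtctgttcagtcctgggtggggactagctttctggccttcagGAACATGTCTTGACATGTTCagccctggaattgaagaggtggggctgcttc
Bax (chr7:45466899-45467148, minus strand): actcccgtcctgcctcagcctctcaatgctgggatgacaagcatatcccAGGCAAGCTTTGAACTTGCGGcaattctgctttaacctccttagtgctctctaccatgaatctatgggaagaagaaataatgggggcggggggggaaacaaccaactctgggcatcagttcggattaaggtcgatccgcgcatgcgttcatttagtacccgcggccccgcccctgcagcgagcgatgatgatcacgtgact
Ccng1 (chr11:40755287-40755536, minus strand): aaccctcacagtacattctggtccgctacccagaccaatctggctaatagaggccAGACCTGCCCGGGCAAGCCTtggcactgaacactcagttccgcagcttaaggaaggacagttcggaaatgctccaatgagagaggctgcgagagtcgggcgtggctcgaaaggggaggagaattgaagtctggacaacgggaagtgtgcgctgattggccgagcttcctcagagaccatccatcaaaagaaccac
Gdf15 (chr8:70632457-70632706, minus strand): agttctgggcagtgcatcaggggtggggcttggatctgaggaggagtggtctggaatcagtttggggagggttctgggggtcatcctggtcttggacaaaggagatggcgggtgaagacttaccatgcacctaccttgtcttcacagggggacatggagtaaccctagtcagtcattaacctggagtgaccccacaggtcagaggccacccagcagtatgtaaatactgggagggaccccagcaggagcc

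In Cdkn1a the pair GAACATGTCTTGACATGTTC lay at chr17:29090928-29090947, 51 to 32 bases before the more upstream of the 2 starts in the table, and this start is 2790 bases before the other. The pair of Bax, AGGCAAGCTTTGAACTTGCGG at chr7:45467079-45467099, lay 201 to 181 bases before the start, and that of Ccng1, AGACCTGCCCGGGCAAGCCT at chr11:40755462-40755481, 195 to 176 bases before it. When the first 300 bases of annotated coding transcripts were searched by the same letters, also after seeing the data, 140 of 13899 genes held a pair (1.01%). Among them were 2 of the 10 genes. Gdf15 held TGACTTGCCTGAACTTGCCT at chr8:70631966-70631985, bases 111 to 130 of transcript Gdf15-201, and Bax held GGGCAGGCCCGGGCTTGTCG at chr7:45466574-45466593, bases 239 to 258 of Bax-203. Transcript Gdf15-201 begins at the other of 2 Gdf15 starts, 361 bases downstream of the one whose window is printed. Over these 2 searches, which differ in their shares among all genes, a pair was found in Gdf15 and Bax, which rose, and in Cdkn1a and Ccng1, which were not called. Phlda3, which rose, had none in either search. A match in letters describes the sequence and is not evidence of binding. The letters TGATGNAA, a form of the site bound by ATF4 and its partners, were searched on both strands and occurred in 3.97% of all windows and in none of these genes' windows. A GC box, GGGCGG on either strand, occurred in 8 of the 12 windows of these genes, in 35.7% of all windows and in 58.6% of the windows of genes tested.

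The libraries held 10963849 to 14333311 counts, and 3 counts, taken as the smallest visible level, correspond to 0.209 to 0.274 CPM (counts normalised to library size) of the unscaled library, which covers counting error only. Libraries were scaled by TMM, with factors of 0.852 to 0.886 on day 0 and 1.12 to 1.17 on day 21, and CPM values below are on these scaled library sizes. Mitochondrially encoded genes took 9.39% to 9.86% of counts on day 0 and 3.82% to 4.42% on day 21. The defining markers of kidney were present, with Umod of the thick ascending limb at a mean of 4670 CPM on day 0 and 3410 CPM on day 21 and Slc34a1 of the proximal tubule at 4860 and 879 CPM. In whole tissue, fewer cells of a type and less RNA per cell cannot be told apart, and this holds for every gene below.

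Among the secreted products, Gdf15 encodes a circulating stress cytokine of the TGF-beta superfamily that acts on a receptor of the hindbrain. It lies on chromosome 8 (chr8:70629393-70632456, minus strand, GRCm38, as are all gene positions below). Its normalised levels were 5.92, 6.84 and 9.79 CPM on day 0 and 75.1, 51.7 and 73.9 CPM on day 21. The lowest day-21 mouse was well above the highest day-0 mouse, and the groups did not overlap. The means were 7.52 ± 2.02 CPM (SD, n = 3) and 66.9 ± 13.2 CPM (SD, n = 3), a log2 fold change of 3.16 (SE 0.214, 95% interval 2.68 to 3.63, adjusted p = 3.1e-06), which stood at percentile 97.8 of all genes tested. Raw counts of 59, 83 and 95 against 1062, 866 and 1206 lay behind these levels. Non-overlapping groups were seen in 57.1% of all genes tested, with day 21 higher in 30.7% and lower in 26.4%, and of the 10 genes in 3 and 1. An exact permutation test of 3 against 3 mice cannot go below p = 0.1, the value reached by each gene of the 10 whose groups did not overlap. The receptor gene Gfral had 0 counts in all 6 libraries, which allows up to 3 counts in each, and its co-receptor Ret was at 0.931 ± 0.238 CPM on day 0 and 0.761 ± 0.595 CPM on day 21 (SD, n = 3 each, log2 fold change -0.27, adjusted p = 0.74).

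**Figure D1:**
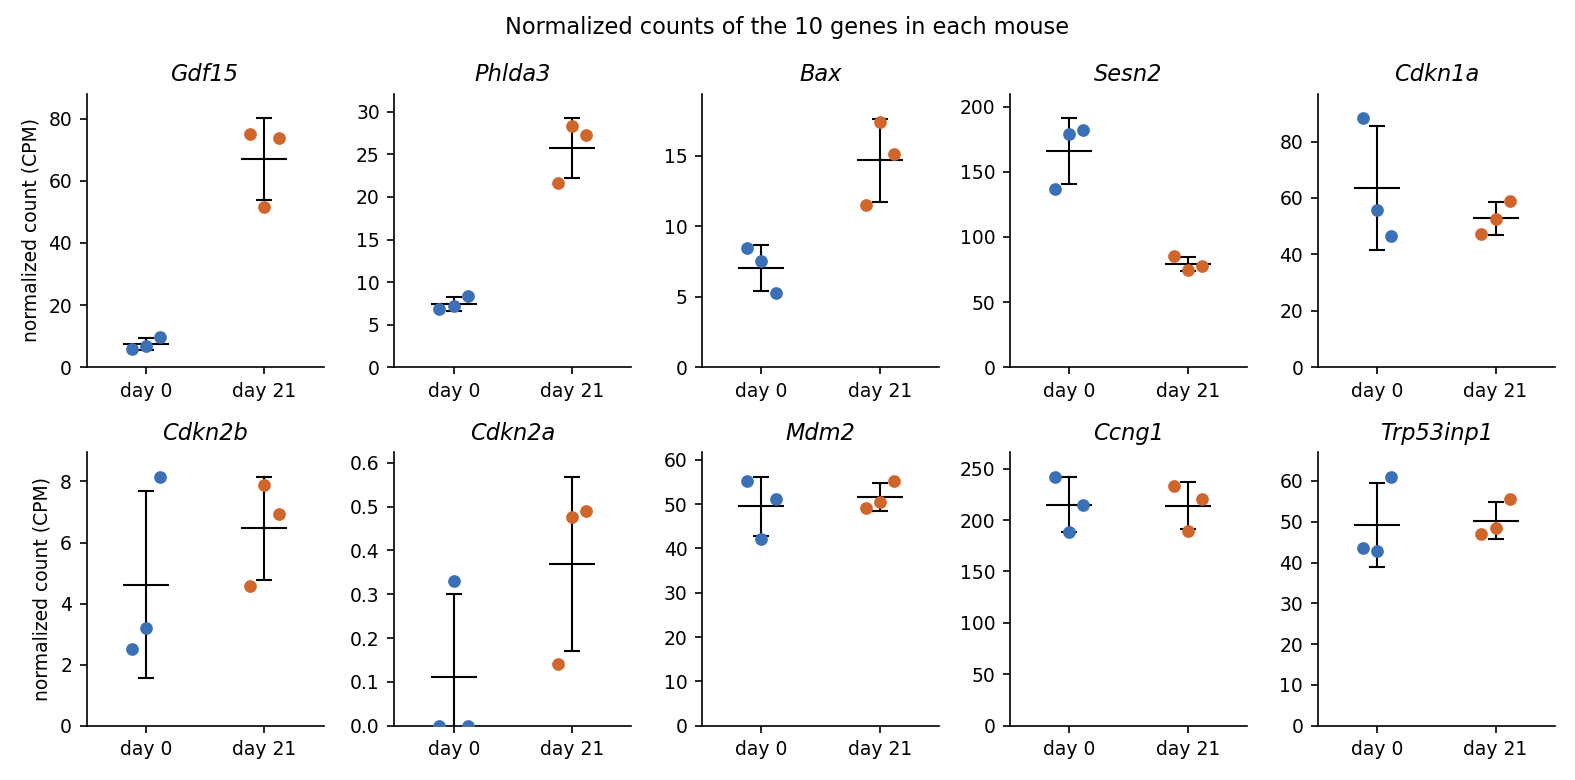
Normalised level of each of the 10 genes in every mouse, in CPM on scaled library sizes, with a separate linear axis from 0 for each gene, points for mice and black bars for the mean and SD of 3 mice. Gdf15, Phlda3 and Bax are higher in all 3 day-21 mice and Sesn2 is lower in all 3, while the other genes overlap between the groups. The SD bar of Cdkn2a on day 0 is clipped at 0.

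Phlda3 encodes a small pleckstrin-homology protein that competes with Akt for membrane lipids and so restrains this survival kinase (chr1:135766119-135769136, plus strand). The day-0 mice had 6.82, 7.17 and 8.35 CPM and the day-21 mice 21.7, 28.3 and 27.3 CPM. No day-0 mouse reached the lowest day-21 mouse. From 7.45 ± 0.801 CPM (SD, n = 3) the mean rose to 25.7 ± 3.54 CPM (SD, n = 3), with a log2 fold change of 1.79 (SE 0.167, 95% interval 1.42 to 2.16, adjusted p = 1.9e-05), at percentile 92.6 of all genes tested. None of its 50-base words was shared with another gene. Of its paralogs, Phlda1 rose by 0.85 on the log2 scale (adjusted p = 0.008) and Phlda2 did not pass the test (-0.41, adjusted p = 0.19).

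Bax encodes the pore-forming protein of the BCL2 family that permeabilises the outer mitochondrial membrane in apoptosis (chr7:45461697-45466898, minus strand). Levels were 8.42, 7.5 and 5.26 CPM on day 0 and 11.5, 17.4 and 15.1 CPM on day 21. The groups did not overlap, though the lowest day-21 mouse was nearer to the highest day-0 mouse than for Gdf15 or Phlda3. The means of 7.06 ± 1.63 and 14.7 ± 2.95 CPM (SD, n = 3 each) gave a log2 fold change of 1.05 (SE 0.226, 95% interval 0.55 to 1.56, adjusted p = 0.0036), at percentile 85.9. Of its exon bases 192 (12.2%) lie in exons of Gm45808 on the same strand, a gene with 0 counts in all mice, and 8.51% of the 50-base words of its transcripts occur in another gene, so that the split of reads is uncertain there.

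Sesn2 encodes sestrin 2, a leucine sensor that lets mTORC1 be held back when amino acids are scarce and that also acts in antioxidant defence (chr4:132492032-132510501, minus strand). It was the member that fell. The day-0 mice stood at 137, 179 and 182 CPM and the day-21 mice at 85.5, 74.6 and 77.8 CPM. All day-21 mice were below the lowest day-0 mouse, with closely spaced values. Its mean went from 166 ± 25.0 to 79.3 ± 5.59 CPM (SD, n = 3 each), a log2 fold change of -1.07 (SE 0.132, 95% interval -1.36 to -0.77, adjusted p = 0.00011), at percentile 8.59 of all genes tested. The related sestrins were not called: Sesn1 was at 26.9 ± 2.43 CPM on day 0 and 21.6 ± 2.75 CPM on day 21 (log2 fold change -0.31, adjusted p = 0.096), and Sesn3 at 55.5 ± 12.4 and 76.0 ± 9.32 CPM (log2 fold change 0.45, adjusted p = 0.042), under the fold threshold.

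Of the arrest genes, Cdkn1a did not move beyond its spread. It lies at chr17:29090976-29100727 on the plus strand. Its levels were 88.2, 55.6 and 46.4 CPM on day 0 and 47.1, 52.4 and 58.9 CPM on day 21. The day-21 mice fell inside the range of the day-0 mice, of which replicate 1 stood far above the others. The means were 63.4 ± 22.0 and 52.8 ± 5.93 CPM (SD, n = 3 each) and the log2 fold change was -0.26 (SE 0.209, 95% interval -0.73 to 0.20, adjusted p = 0.33). With all 6 mice, the interval leaves out a rise beyond 0.20 on the log2 scale under TMM scaling. No interval without day-0 replicate 1 is given here. Among day-0 mice, that mouse also had the highest Krt20 (16 CPM, against 0.247 and 0.515 CPM) and Havcr1 (8.12 CPM, against 2.23 and 1.55 CPM). Of the other injured tubule markers, Spp1, Vcam1 and Lcn2 were highest in it too, and Sox9 in day-0 replicate 3. Their bearing on Cdkn1a was not tested. The spread of Cdkn1a on day 0 was 34.7% of the mean, beside a median of 16.4% over all genes tested. Without day-0 replicate 1 the fitted difference was 0.03, and with libraries scaled by their totals alone it was 0.13, so its sign is not set by these data. Exons of AC167363.2 on the opposite strand cover 273 of its exon bases (7.68%), and the strand setting of the counting is not given in the sources used here. That antisense gene was itself lower on day 21, at 5.43 ± 0.565 against 12.1 ± 2.37 CPM (SD, n = 3 each, log2 fold change -1.15, adjusted p = 0.0013), and its part in the counts of Cdkn1a was not tested.

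Cdkn2a was close to absent from these libraries. The gene (chr4:89274471-89294653, minus strand) makes 2 annotated transcripts that begin at different first exons and read the shared exon in different frames: Cdkn2a-202, of 169 codons from the upstream start, encodes p19Arf, which inhibits Mdm2, and Cdkn2a-201, of 168 codons, encodes p16Ink4a. Counts per gene cannot separate them. The day-0 mice had 0, 4 and 0 reads and the day-21 mice 2, 8 and 8 reads, or 0, 0.33 and 0 CPM against 0.141, 0.477 and 0.49 CPM. Read numbers overlapped between the groups, and day-0 replicate 2 was above day-21 replicate 1. The gene did not pass the filter on low counts, and the exact permutation test gave p = 0.2. With no filter, edgeR's quasi-likelihood test gave a log2 fold change of 1.56 with a 95% interval of -0.88 to 3.99 (adjusted p = 0.37). A difference was therefore not detectable at this depth.

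Cdkn2b, the neighbour of Cdkn2a at a distance of 11645 bases (chr4:89306299-89311039, minus strand), encodes p15Ink4b, the INK4 inhibitor that TGF-beta raises in epithelial cells. Its levels were 2.51, 3.21 and 8.14 CPM on day 0 and 4.59, 7.87 and 6.92 CPM on day 21. Day-0 replicate 3 was the highest of all 6 mice, and the other day-0 mice were the lowest. The means of 4.62 ± 3.07 and 6.46 ± 1.69 CPM (SD, n = 3 each) gave a log2 fold change of 0.50 (SE 0.408, 95% interval -0.41 to 1.41, adjusted p = 0.35). The call turned on that single mouse: without day-0 replicate 3, Cdkn2b was called higher, with a log2 fold change of 1.15 (adjusted p = 0.017 in edgeR's test of 2 against 3 mice), and 4 rather than 3 of the 10 genes were called higher. Over the libraries left out in turn, the log2 fold change ran from 0.20 to 1.15.

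**Figure D2:**
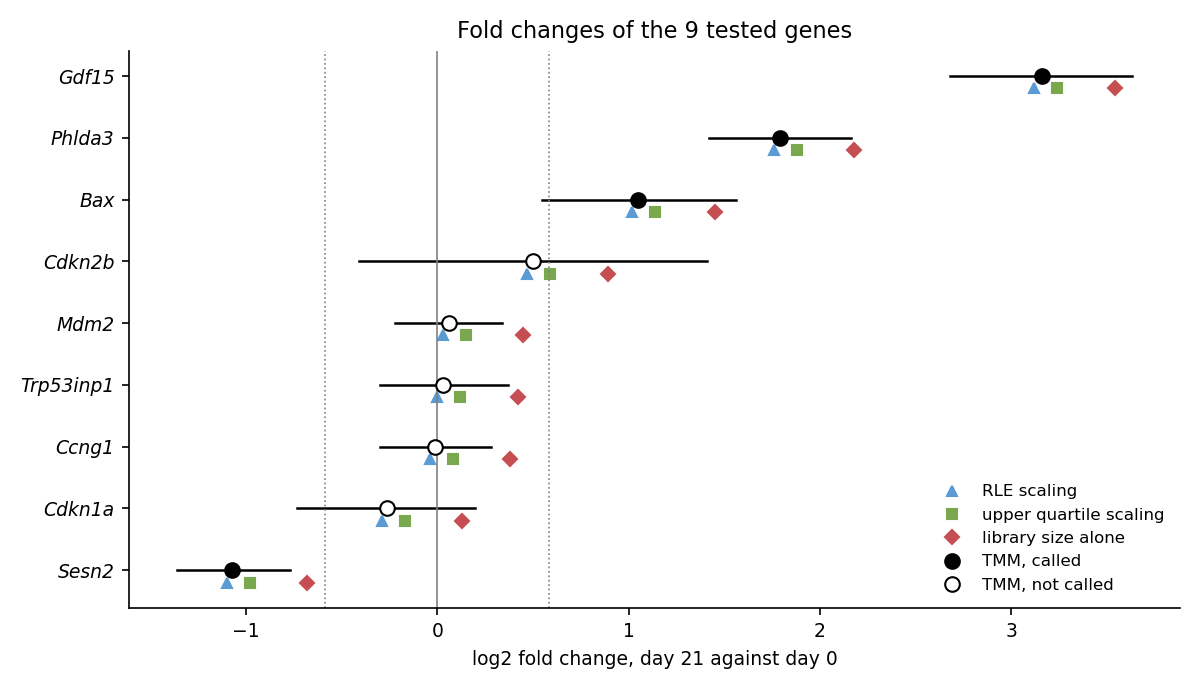
Log2 fold change from day 0 to day 21 of the 9 tested genes (x axis), with circles for TMM scaling (filled where called), bars for the 95% interval of edgeR's fit, coloured symbols for 3 other scalings and dotted lines at the fold threshold of 1.5. The intervals of Gdf15, Phlda3 and Bax lie above 0 and that of Sesn2 below 0, and the intervals of the 5 genes not called include 0.

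The 3 feedback and stress regulators showed the smallest differences of the 9 tested genes. Mdm2 (chr10:117688875-117710758, minus strand) was at 55.1, 42.2 and 51.1 CPM on day 0 and 49.2, 50.5 and 55.1 CPM on day 21, and the mice overlapped fully. Its means were 49.5 ± 6.63 and 51.6 ± 3.11 CPM (SD, n = 3 each), with a log2 fold change of 0.06 (SE 0.125, 95% interval -0.22 to 0.34, adjusted p = 0.71). Ccng1, the gene of cyclin G1, which recruits a phosphatase to Mdm2 (chr11:40748552-40755311, minus strand), was the most abundant of the 10 per exon length. It stood at 242, 188 and 215 CPM on day 0 and 233, 189 and 220 CPM on day 21, with no mouse of either group apart from the other group. The log2 fold change was -0.01 (SE 0.129, 95% interval -0.30 to 0.28, adjusted p = 0.96) between means of 215 ± 26.8 and 214 ± 22.5 CPM (SD, n = 3 each). Trp53inp1 encodes a nuclear and autophagy protein that promotes p53 phosphorylation (chr4:11156431-11174379, plus strand). Its levels were 43.5, 42.9 and 61.0 CPM on day 0 and 46.9, 48.4 and 55.6 CPM on day 21, all day-21 mice lying inside the day-0 range. The fit gave 0.03 on the log2 scale (SE 0.152, 95% interval -0.30 to 0.37, adjusted p = 0.87) between 49.2 ± 10.3 and 50.3 ± 4.68 CPM (SD, n = 3 each). For these 3 genes the intervals reach at most 0.37 in either direction under TMM scaling. With libraries scaled by their totals alone the median of all genes moved from 0.03 to 0.42, and Mdm2, Ccng1 and Trp53inp1 moved with it to 0.45, 0.38 and 0.42, with adjusted p of 0.015, 0.028 and 0.043 and folds below the threshold.

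Per kilobase of exon, which allows levels of different genes to be compared, Ccng1 was highest in both groups, at a mean of 61.2 CPM per kb on day 0 and 60.8 CPM per kb on day 21. On day 0 it was followed by Sesn2 at 47.8, Cdkn1a at 17.8, Mdm2 at 9.74 and Trp53inp1 at 7.59 CPM per kb, and of these neighbours only Mdm2 and Trp53inp1 overlapped between mice. Phlda3 at 4.78, Bax at 4.48, Gdf15 at 4.06 and Cdkn2b at 3.32 CPM per kb came next, and neighbours among these genes overlapped. Cdkn2a was last, at 0.0938 CPM per kb. On day 21 Gdf15 stood in the second place at 36.1 CPM per kb, above Sesn2 at 22.8 CPM per kb, with no overlap between these. Phlda3 at 16.5 CPM per kb then overlapped with Cdkn1a at 14.9 CPM per kb. Mdm2, Bax and Trp53inp1 followed at 10.2, 9.31 and 7.77 CPM per kb, where Mdm2 overlapped with Bax and Bax with Trp53inp1. Cdkn2b at 4.65 and Cdkn2a at 0.315 CPM per kb were the lowest 2 genes. Lengths were of all annotated exons together, and with the longest transcript instead Cdkn1a was at 30.5 CPM per kb on day 0 and 25.4 CPM per kb on day 21.

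**Figure D3:**
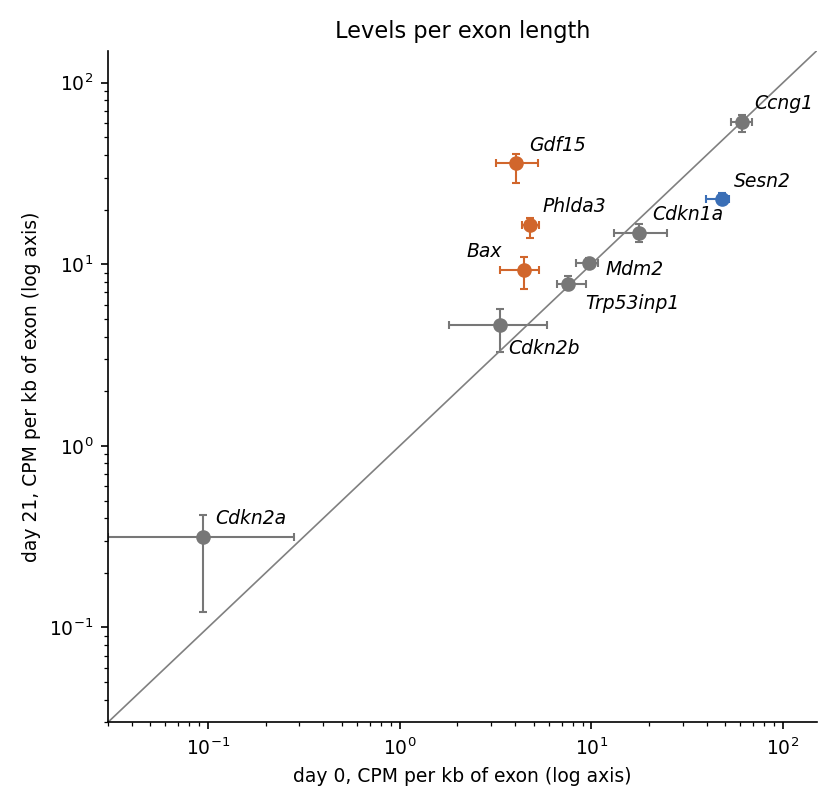
Mean level of the 10 genes in CPM per kilobase of exon on day 0 (x axis) and day 21 (y axis), both on log axes, with bars from the lowest to the highest of 3 mice and a line where the groups are equal. Gdf15, Phlda3 and Bax lie above the line and Sesn2 below it, and the lower day-0 bar of Cdkn2a runs off the axis because 2 mice had 0 reads.

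Ratios of 2 genes within a library do not depend on how libraries are scaled, and 8 were computed, with 0.5 counts added to each gene and tested by two-sided exact permutation tests. The ratio of Mdm2 to Trp53 is one of a feedback target to its regulator. It was 1.64, 1.70 and 1.92 on day 0 and 0.844, 0.770 and 0.985 on day 21, without overlap. Its log2 change was -1.02 (exact p = 0.1, adjusted over the 8 ratios 0.2), beside a flat Mdm2 and a Trp53 that rose from 28.4 ± 4.65 to 60.0 ± 5.03 CPM (SD, n = 3 each). Bax to Bcl2l1, a death effector to a survival member of its family, went from 0.0384, 0.0469 and 0.0346 to 0.0775, 0.124 and 0.0916, again without overlap (log2 change 1.27, exact p = 0.1, adjusted 0.2). Against Bcl2, which rose as well, Bax gave ratios of 0.613, 0.552 and 0.338 on day 0 and 0.538, 0.782 and 0.673 on day 21, and these overlapped (log2 change 0.43, exact p = 0.3, adjusted 0.4). Bcl2 was at 14.3 CPM on day 0 and 22.0 CPM on day 21 (log2 fold change 0.62, adjusted p = 0.0034).

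Gdf15 and Sesn2, which share inducers, parted most of the 8 pairs, and the ratio was 0.0431, 0.0383 and 0.0538 on day 0 and 0.878, 0.693 and 0.949 on day 21 (log2 change 4.21, exact p = 0.1, adjusted 0.2). No overlap was present. Ccng1 to Ccng2, its paralog, was 9.45, 6.43 and 6.42 on day 0 and 6.20, 6.33 and 5.98 on day 21 (log2 change -0.24, exact p = 0.1, adjusted 0.2), with a gap between the groups far smaller than the distance of day-0 replicate 1 from its group. Without that mouse the change was -0.06. The ratios of Mdm2 to Mdm4, Cdkn1a to Cdkn1b and Cdkn2a to Cdkn2b changed by 0.12, -0.15 and 1.24 on the log2 scale, with exact p of 0.3, 0.8 and 0.4 and overlapping groups. The change of Cdkn1a to Cdkn1b turned to 0.24 without day-0 replicate 1.

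**Figure D4:**
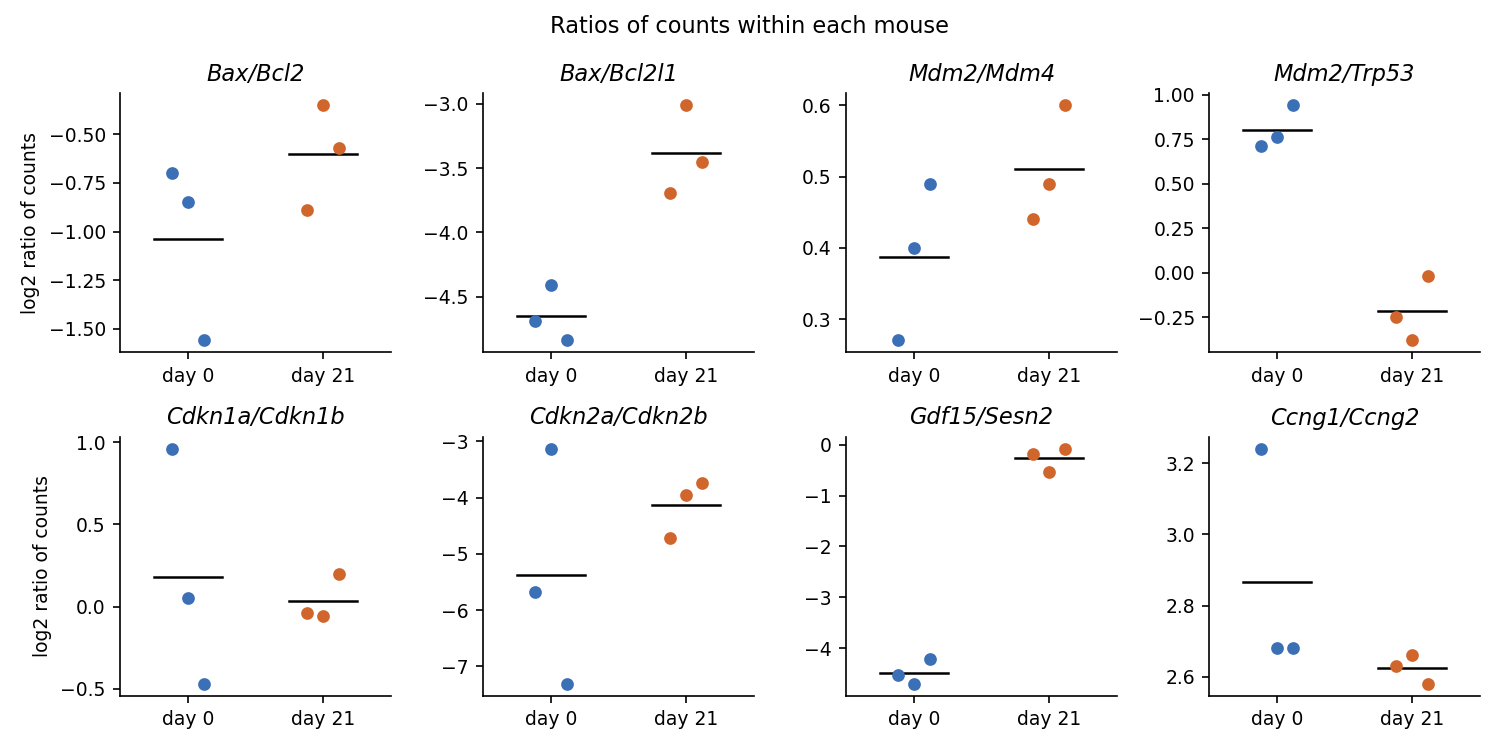
Log2 ratio of 2 genes within each library for the 8 ratios, with points for mice, horizontal lines for group means and a separate axis for each ratio. Gdf15/Sesn2, Bax/Bcl2l1, Mdm2/Trp53 and Ccng1/Ccng2 are parted between the groups, and the other 4 ratios overlap.

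The lists of related genes below are described by their counts and medians, which can be read beside 19.6% higher, 15.5% lower and a median of 0.03 over all genes tested. Without the fold threshold, 45.6% of all genes tested had an adjusted p under 0.05. Genes with few day-0 reads may pass the filter on low counts only through their day-21 reads. For such genes a rise says little, and the counts of rises below include some of them.

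Of p53 itself and its regulators, 3 of 17 tested genes rose and 1 fell, with a median log2 fold change of 0.05. Trp53 rose by 1.08 on the log2 scale (95% interval 0.77 to 1.39, adjusted p = 0.00014), from 33.7, 24.9 and 26.7 CPM to 58.3, 65.6 and 56.0 CPM. The checkpoint kinase genes Chek1 and Chek2 rose by 3.0 and 1.53, Chek1 from only 9, 6 and 3 reads on day 0. Hipk2, a kinase that phosphorylates p53 for apoptosis, fell by 1.49 (adjusted p = 0.00045). Mdm4, the partner of Mdm2 in restraining p53, did not pass the test (log2 fold change -0.06, adjusted p = 0.74). The number of fallen genes was 3 without day-0 replicate 2 and 2 without day-21 replicate 1 or 3.

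Other p53 targets that act in growth arrest gave 8 rises of 11 tested and no fall, with a median of 1.22. Leading were Gtse1 (log2 fold change 3.59), Ckap2 (3.53) and Psrc1 (3.31), which encode microtubule and spindle proteins of dividing cells, from means of 0.581, 0.731 and 0.379 CPM on day 0 to 7.23, 8.45 and 3.85 CPM on day 21. On day 0 the reads were 3, 10 and 6 for Gtse1, 4, 8 and 11 for Ckap2 and 6, 4 and 2 for Psrc1. These genes may have passed the filter only through their day-21 reads, so their part in the rises says little. The number of rises in the arrest list was 5 without day-0 replicate 2, without day-21 replicate 3 and with a mean of at least 50 counts required. Of the targets that act in cell death, 5 of 10 rose and none fell, with a median of 0.56. Among these were Eda2r (2.61) and the BH3-only genes Bbc3 (1.82, from 3.69 ± 0.476 to 13.1 ± 2.48 CPM, n = 3 each) and Pmaip1 (1.67, from 9.95 ± 1.22 to 31.7 ± 3.35 CPM, n = 3 each). Targets of metabolism and DNA repair gave 2 rises of 12 tested, Ephx1 (0.81) and Gadd45a (0.67), a median of 0.34, and 1 rise when day-0 replicate 2, day-0 replicate 3 or day-21 replicate 2 was left out.

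Genes of cell division, which Cdkn1a and the INK4 inhibitors oppose, rose throughout the S, G2 and M phase list, 20 of 20, with a median of 2.74. Some had few day-0 reads, such as Bub1 (1, 2 and 6), Aurkb (2, 0 and 12) and Ccnb2 (3, 9 and 10). These may have passed the filter only through their day-21 reads, so the count says little for them. Others, such as Pcna with 552, 550 and 428 reads on day 0, were well above the filter in both groups. Mki67, the proliferation marker, went from 2.46 ± 0.994 to 44.6 ± 2.21 CPM (SD, n = 3 each, log2 fold change 4.19, adjusted p = 1.1e-06), and Aurkb and Ccnb2 of mitosis rose by 4.32 and 4.18. In the list of G1 cyclins, kinases and pocket proteins, 8 of 14 rose and 1 fell, with a median of 0.72. Ccne1 rose by 3.19, E2f1 by 1.96 and E2f2 by 1.31. Rbl2, a pocket protein of resting cells, fell by 0.59, a call that was lost with upper quartile scaling, with scaling by totals alone, with a mean of at least 50 counts required and without day-0 replicate 3, day-21 replicate 2 or day-21 replicate 3. Among the other CDK inhibitors, Cdkn2c rose by 1.00, and Cdkn2d by 1.09. Cdkn3, a phosphatase made in dividing cells, had 0, 2 and 0 reads on day 0 and 23, 45 and 43 reads on day 21 (adjusted p = 0.00034). Cdkn1b and Cdkn1c did not pass the test, with log2 fold changes of -0.08 and -0.32.

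**Figure D5:**
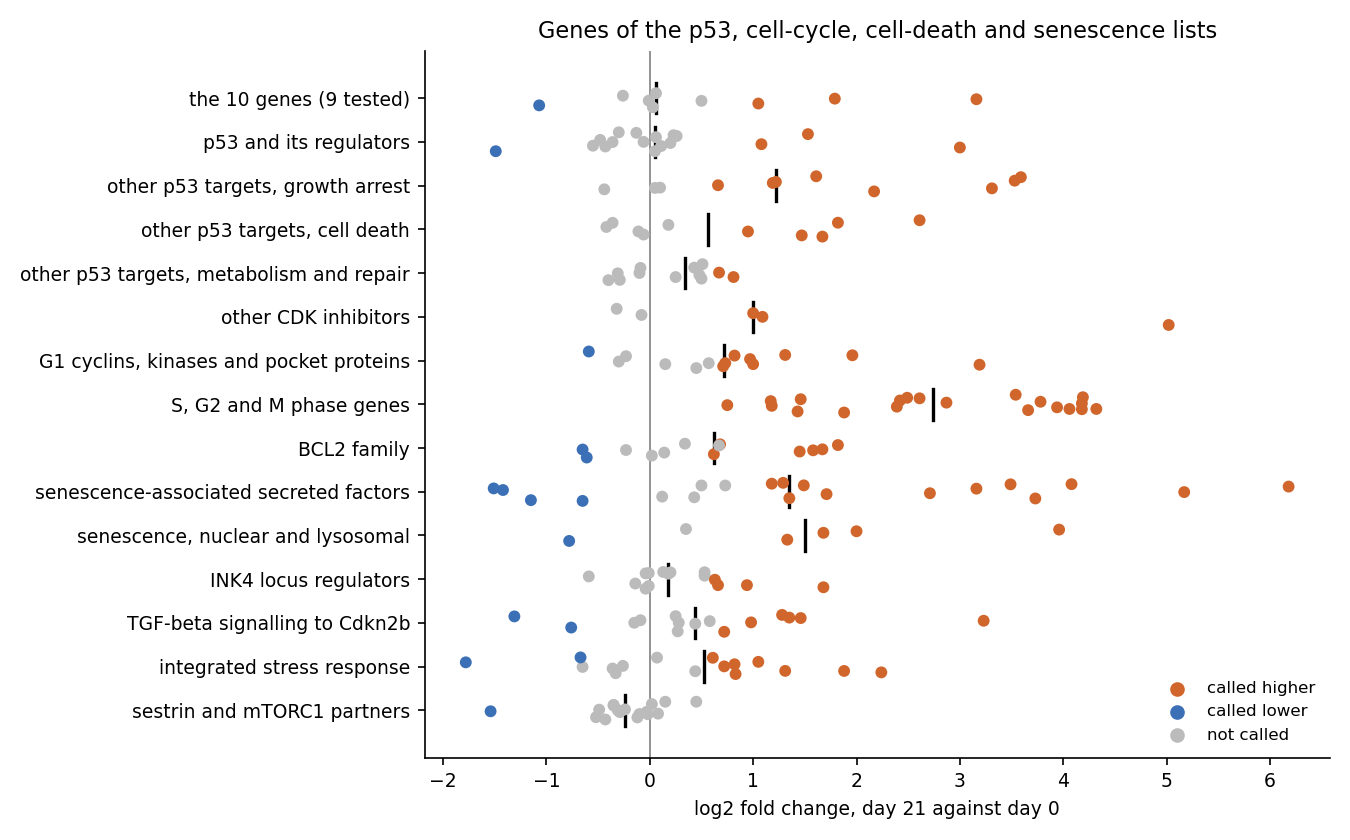
Log2 fold change from day 0 to day 21 of the tested genes among the 10 and in 14 lists (points), with the median of the list as a black bar and colour for the call. Tnf, without a read on day 0, is counted in its list but not drawn. The S, G2 and M phase list lies wholly to the right of 0, with a median of 2.74, and the sestrin and mTORC1 list lies around its median of -0.24.

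In the BCL2 family beyond Bax, 6 of 13 tested genes rose and 2 fell, with a median of 0.62. Bbc3, Pmaip1 and Bmf, all BH3-only death genes, rose most, Bmf by 1.58. Bid, another BH3-only gene, and Bcl2l2, a survival gene, fell by 0.65 and 0.61, and neither call held under upper quartile scaling or scaling by totals alone. The falls numbered 1 without day-0 replicate 3 or day-21 replicate 2 and with a mean of at least 50 counts required. Bcl2l1 did not pass the test (log2 fold change -0.23, adjusted p = 0.24).

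Secreted factors that senescent cells are known to release gave 13 rises and 4 falls of 21 tested genes, with a median of 1.35. Timp1, an inhibitor of matrix proteases, went from 0.534 ± 0.350 to 39.5 ± 3.03 CPM (SD, n = 3 each, log2 fold change 6.18), and the chemokines Cxcl2 and Ccl2 rose by 5.17 and 4.08, from means of 0.167 and 0.852 CPM to 6.02 and 14.2 CPM. Timp1, Cxcl2 and Ccl2 had at most 9, 5 and 15 reads in a day-0 mouse, so the limit on genes with few day-0 reads holds for them. Vegfa, Igfbp3 and Igfbp5 fell by 1.15, 1.42 and 1.51. Of 6 nuclear and lysosomal genes used to judge senescence, 4 rose. Lmnb1 and Hmgb2, which senescent cells are known to lose, rose by 2.00 and 1.33, as did the chromatin genes Ezh2 (1.68) and Uhrf1 (3.96). Glb1, the lysosomal beta-galactosidase whose activity stains senescent cells, fell by 0.78 (adjusted p = 0.001), a call lost with scaling by totals alone. Hmgb1 had a log2 fold change of 0.35 and was under the fold threshold.

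Regulators of the INK4 locus were mostly not called, with 4 of 15 higher, none lower and a median of 0.18. Besides Ezh2, which silences the locus as part of Polycomb complex PRC2, Eed of the same complex rose by 0.94 and Rnf2 of PRC1 by 0.66. Without day-0 replicate 1, 2 genes were called higher and 1 lower. In the list of TGF-beta signalling to Cdkn2b, 6 of 15 rose and 2 fell, with a median of 0.44. Tgfb2 rose by 3.23, Tgfb1 by 1.35 and Myc, which represses Cdkn2b, by 1.46, while Foxo1 and Foxo3, which act with SMADs on it, fell by 0.76 and 1.31. Scaling by totals alone gave 11 rises and 1 fall there.

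The integrated stress response, a further input to Gdf15 and Sesn2, gave 8 rises and 2 falls of 16 tested genes, with a median of 0.52. Atf3 rose by 2.24, Eif2ak2, the kinase that senses double-stranded RNA, by 1.88 and Asns by 1.31, while Shmt2 and Psat1 of serine and glycine metabolism fell by 1.78 and 0.67. Phgdh, the first enzyme of serine synthesis, rose by 0.61 (adjusted p = 0.0053). Atf4, the central factor, did not pass the test, with means of 137 ± 35 and 106 ± 5.27 CPM (SD, n = 3 each, log2 fold change -0.36, adjusted p = 0.095), nor did Ddit3 (0.44, adjusted p = 0.10). The rises numbered 5 without day-0 replicate 2 or day-21 replicate 2, and the falls 1 without day-0 replicate 3, day-21 replicate 2 or day-21 replicate 3. Sestrin and mTORC1 partners gave no rise and 1 fall of 17 tested, and a median of -0.24 that turned to 0.15 with scaling by totals alone. The gene that fell was Mtor, by 1.54, from 269 ± 18.9 to 92.5 ± 15.3 CPM (SD, n = 3 each, adjusted p = 1.5e-05). Falls numbered 3 without day-0 replicate 1, and 1 gene was higher without day-0 replicate 3. Paralogs of the 10 genes gave 5 rises and 1 fall of 13 tested, with a median of 0.24. Bak1, the second pore former beside Bax, rose by 1.45 and Trp53inp2 fell by 0.70, a fall not called with scaling by totals alone.

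Markers of cell types moved with the same comparison. All 6 markers of injured tubule rose, from a summed level of 538 to 1680 CPM on day 0 to 19500 to 23500 CPM on day 21, with Havcr1 at 3.96 and 1050 CPM on average. Most of that sum was Spp1, at 513 to 1610 CPM on day 0 and 17400 to 21200 CPM on day 21. Markers of proximal tubule all fell, 8 of 8, from 23600 to 35300 CPM to 4440 to 6450 CPM, with Slc34a1, Miox and Kap lower by 2.47, 2.47 and 3.01 on the log2 scale. Kap was the largest part of this sum on day 0, at 9380 to 19300 CPM. Markers of other parts of the kidney epithelium fell in 4 of 5 genes of the thick ascending limb and distal tubule, 4 of 4 of the collecting duct and 3 of 4 of the podocyte, the last of which was 1 with scaling by totals alone. Macrophage and monocyte markers rose in 8 of 8 genes (summed 152 to 195 CPM, then 845 to 1150 CPM), with C1qa at 19.3 and 185 CPM. Fibroblast and myofibroblast markers rose in 6 of 6 (199 to 283 CPM, then 1120 to 2030 CPM). Of 7 T and B lymphocyte markers only 4 had enough reads to be tested, and these rose, Cd4, Cd3e and Cd3g among them. The 7 summed to a low level of 3.21 to 9.40 and 20.9 to 21.2 CPM. At such day-0 levels genes may pass the filter only through their day-21 reads, so this count says little. Neutrophil markers gave 1 rise and 2 falls of 3 tested, with Mpo at 0 in all mice, endothelial markers 1 fall of 4, which was 2 without day-0 replicate 1 or day-21 replicate 1, and urothelial markers 1 fall of 5, which was none without day-0 replicate 2, day-0 replicate 3, day-21 replicate 1 or day-21 replicate 2. The part of these shifts in the values of the 10 genes was not tested.

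Among the day-0 mice, replicates 1, 2 and 3 were above the group mean in 4, 3 and 7 of the 10 genes. Replicate 1 was the highest of its group for 4 genes, Cdkn1a among them, and replicate 3 for 5, with Cdkn2b, Trp53inp1 and Gdf15 among them. On day 21, replicate 3 was above the group mean in 9 of the 10 genes and replicate 1 in 3. The day-21 spread of Cdkn1a was 11.2% of its mean, beside a median of 10.4% over all genes tested.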

How the data were processed

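Total RNA was extracted from kidney tissue and, per the paper, mRNA was sequenced as paired-end reads. The authors deposited raw counts per gene for each mouse, not normalized. Per the submitters' processing notes the reads were aligned with TopHat to mm10, and the counting program and strand setting are not given in the sources used here. Gene identifiers were matched to GENCODE M21 annotation of GRCm38. Samples were grouped by their titles. The 10 genes and all lists were chosen with earlier results of these data known. The labels name replicates, taken here as separate mice, and p-values measure only the spread between these samples.

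Groups were compared with edgeR 4.0.16 under R 4.3.3 (filterByExpr at 10 counts and a total of 15, TMM scaling, quasi-likelihood test, Benjamini-Hochberg adjustment over 16592 genes), with limma 3.58.1 (voom) and DESeq2 1.42.0 as alternatives, and sequences in Python 3.11.15. Calls needed a fold over 1.5 beside an adjusted p under 0.05. Other alternatives were RLE, upper quartile and library-size scaling, other filters, thresholds and pseudocounts, a replicate block, each mouse left out and the library without mitochondrially encoded genes. On simulated data with a 3-fold change in 200 of 16592 genes, edgeR recovered 192 and called 20 others. These changes went up and down in equal number and touched far fewer genes than the 35.1% called here. The simulation therefore does not check the scaling of libraries in which so many genes differ. Named were all 10 genes, the partners in ratios, every gene of lists of at most 6 and otherwise up to 3 called genes at each end of a list with a mean of at least 20 counts. Sesn1, Sesn3, Atf4, Ddit3, Phgdh, Phlda1, Phlda2, Tnf and genes overlapping exons of the 10 were named beyond this rule after their values were seen. With no genome of this build used here, motifs were searched in RefSeq promoter windows of 300 bases in place of wider ones.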

Additional observations from a re-analysis of the deposited data

How the results depend on the processing

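The calls of the 9 tested genes were the same under 15 other fits, except that Cdkn2b was called higher without day-0 replicate 3. Log2 fold changes ran from 3.0 to 3.54 for Gdf15, 1.71 to 2.18 for Phlda3, 0.87 to 1.45 for Bax, -1.21 to -0.68 for Sesn2 and -0.46 to 0.13 for Cdkn1a. Scaling by totals alone moved the share of calls that were higher from 55.8% to 81.7%, and upper quartile scaling to 63.0%. Genes of the pathway lists called lower numbered 15, and 7 with scaling by totals alone, 25 at any fold, 7 at a fold over 2 with adjusted p under 0.01, and 12 to 18 with a mouse left out. The change of the Cdkn1a to Cdkn1b ratio ran from -0.48 to 0.24 with a mouse left out. The count of the 10 genes with a p53 half-site pair was 0, then 1 with a spacer of up to 13 bases, 3 with up to 2 mismatches and 2 in transcripts, the last 2 settings chosen after seeing the data. The search of 1000 bases either side of a start was not run. The causes were not tested. The labels do not say that replicate numbers pair the mice. Deviations of same-numbered mice correlated at -0.0255, 0.173 and 0.0984, and 3 of 6 samples correlated best with their own number. With 3 mice per group, these values cannot settle whether the numbers link mice. With the replicate block, 5758 rather than 5821 genes were called, 3 of the 10 genes higher and 1 lower. Depth limits Cdkn2a, at 0 to 8 counts per library.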
